A study of Mus musculus with 23 samples.

Results

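Sugar and monocarboxylate carriers are the membrane proteins that move hexoses, myo-inositol, sugar phosphates, lactate and related small acids across the membranes of the gut epithelium. The carriers described here are all genes listed in both deposited tables under an Slc2, Slc5, Slc16, Slc37, Slc45 or Slc50 symbol, which gave 48 of 22517 named genes: 12 Slc2, 13 Slc5, 14 Slc16, 4 Slc37, 4 Slc45 and 1 Slc50 gene. RNA of 9 libraries was sequenced from adult mice of mixed B6;129 background, with 3 libraries in each of 3 groups. Eed-null villus had the genotype EedF/F; Villin-CRE, and its control, called WT villus, was EedF/F; Cre-. Intestinal stem cells (ISC) were Eed+/+; Lgr5-EGFP-IRES-CREERT2. All these mice had received 1 to 2 mg tamoxifen on 5 days, and all tissue came from the proximal part of the intestine. Eed belongs to the core of Polycomb repressive complex 2, which methylates histone H3 at lysine 27, and Villin-driven Cre is active throughout the intestinal epithelium, so all its cell types can lose Eed. Cre was present only in the Eed-null mice among the villus groups, so Cre activity and loss of Eed cannot be told apart. WT villus was set against ISC, and Eed-null villus against WT villus.

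A hexose reaches the blood in steps that different families carry out. Slc5 carriers use the sodium gradient to pull glucose and galactose into the enterocyte from the lumen, Slc2 carriers let hexoses pass down their own gradient at either face of the cell, and Slc16 carriers couple lactate, ketone bodies and other monocarboxylates to protons or let them exchange. Among the Slc37 proteins, Slc37a4 exchanges glucose 6-phosphate for phosphate at the endoplasmic reticulum, which delivers it to the phosphatase that frees glucose. Slc5a1 (SGLT1), Slc2a5 (GLUT5) and Slc2a2 (GLUT2) are the textbook route of sugar absorption in the small intestine.

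The authors' deposited tables hold 1 level per gene and group, as read counts scaled to gene length and library size (RPKM), with the authors' q, a p-value adjusted over all genes tested. No value per library is given, so levels carry no spread, and the depth of the libraries is unknown. Calls here are genes with a completed test and q of 0.05 or less, and ratios are those of the deposited levels. The same WT villus libraries stand in both tables, where their carrier levels differ by a factor of 1.16193, so comparisons were made within a table. Eed stood at 3.00 RPKM in Eed-null villus and 9.17 RPKM in WT villus (q = 6.29e-06, authors' deposited table). Of the enterocyte markers, 7 of 7 tested had calls for villus over ISC, and 5 of 5 stem cell markers had the opposite call. The villus samples also carried Paneth cell RNA, with Lyz1 at 699 RPKM in Eed-null villus and 879 RPKM in WT villus, Mmp7 at 69.6 and 48.4 RPKM and Pla2g2a at 12.0 and 9.89 RPKM, none of them called. ISC carried more of it than WT villus by the 2 Paneth markers tested there. Mmp7 had 56.3 RPKM in WT villus and 321 RPKM in ISC, and Pla2g2a 11.5 and 60.4 RPKM, both called, while Lyz1 had no completed test. Villus was frozen as released epithelium whereas ISC were enzymatically dispersed and sorted for GFP, and Ddx3y, a Y-linked gene, had 6.84 RPKM in WT villus and is listed at 0 in ISC, so cell type, genotype, handling and sex cannot be told apart. In such bulk samples a lower level can mean fewer cells of a type or less RNA per cell, and these cannot be told apart.

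WT villus carried far more RNA for sugar uptake than ISC. The levels of the 48 genes added up to 2486 RPKM in WT villus and 210 RPKM in ISC, and Slc5a1 alone made up 52.2% and 19.4% of these sums. Of 35 carriers tested, 20 were called higher in WT villus and 8 higher in ISC, which is 57.1% and 22.9%. Among all 13007 genes tested, 30.5% were called higher in WT villus and 32.3% higher in ISC. At or above 0.246 RPKM in both groups, the lowest level at which any gene was tested, 19 and 6 of 32 carriers were called, beside 30.8% and 31.7% of all such genes. The median difference of log2(RPKM + 1) was 1.81 over the tested carriers and -0.064 over all tested genes, and it was 0.150 over all 48 carriers, tested or not. The families divided: the sums of Slc2 and Slc5 were 22.1-fold and 31.4-fold higher in WT villus, those of Slc16 and Slc37 3.37-fold and 3.35-fold higher, and Slc45 and Slc50 had lower sums in WT villus than in ISC.

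**Figure D1:**
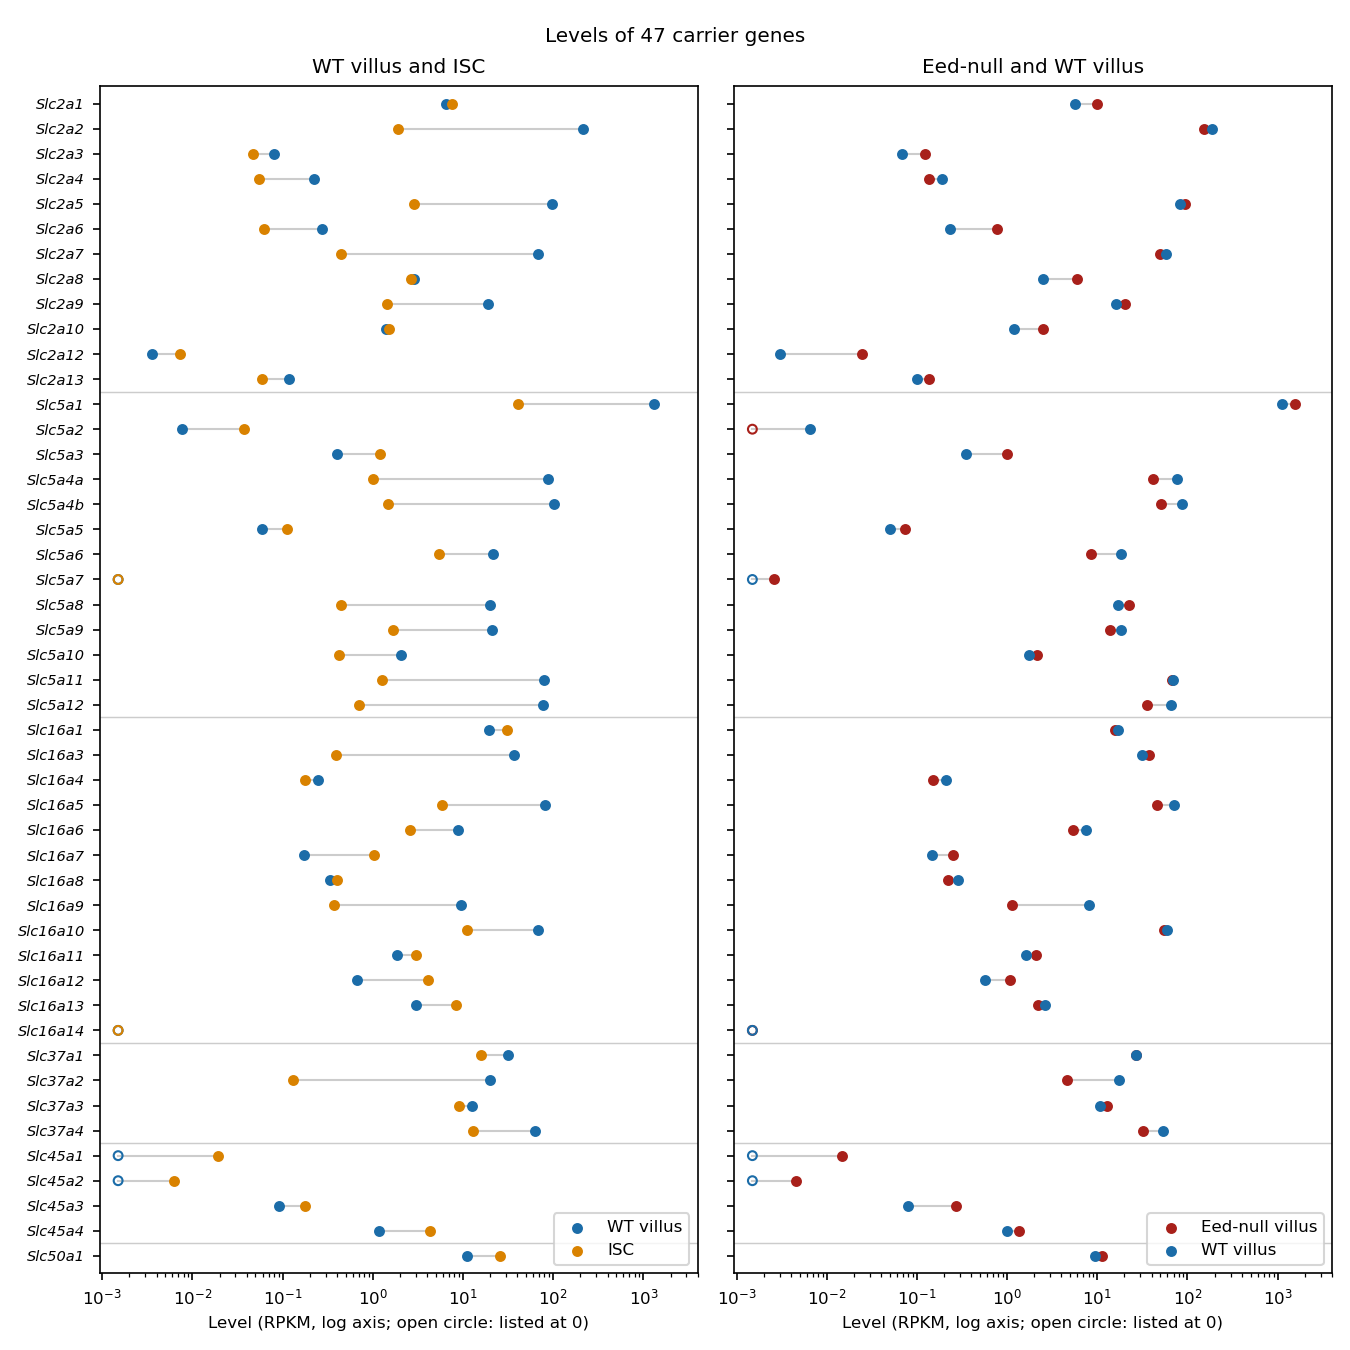
Level of 47 of the carrier genes (RPKM, log axis) in WT villus and ISC (left) and in Eed-null and WT villus (right), with 1 point per group and open circles for genes listed at 0; grey lines divide the families. The high points on the left belong to WT villus, led by Slc5a1 at 1297 RPKM, while the paired points on the right lie close together except for genes such as Slc16a9.

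**Figure D2:**
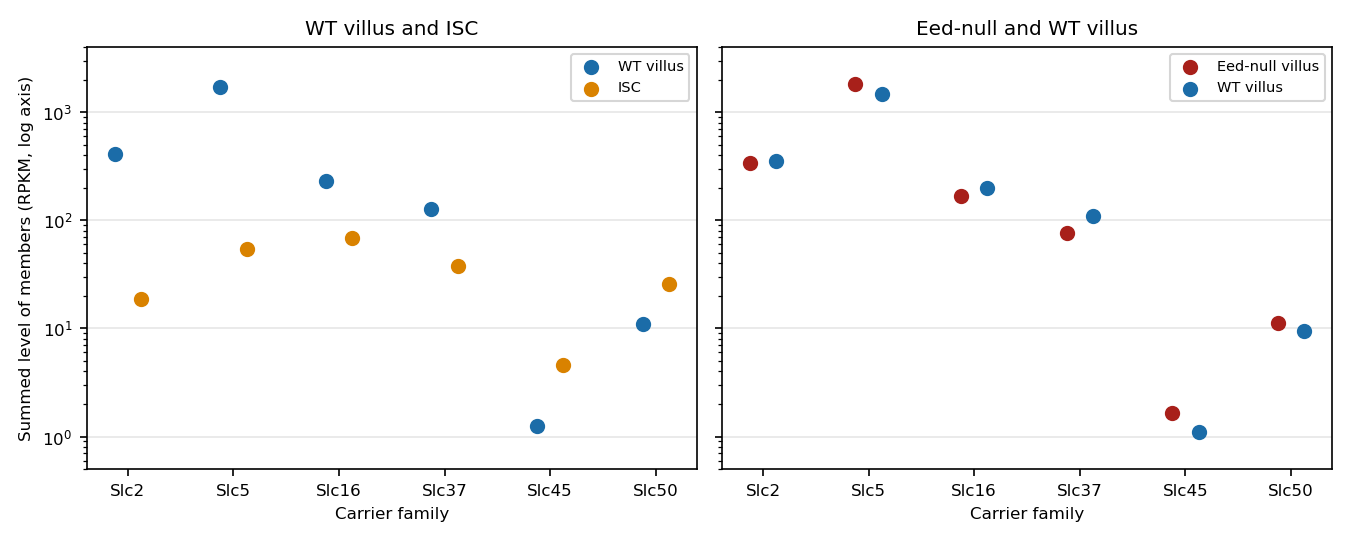
Summed level of the members of each carrier family (RPKM, log axis) in each group of a table. Slc5 sums to 1706 RPKM in WT villus and 54.3 RPKM in ISC, and to 1804 RPKM in Eed-null villus and 1469 RPKM in WT villus, whereas Slc37 sums to 76.2 RPKM in Eed-null villus and 109 RPKM in WT villus.

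In Eed-null villus 12 carriers differed from WT villus, in both directions. The main absorptive carriers were not among the calls: Slc5a1, Slc2a2 and Slc2a5 were all tested and none was called. Slc16a9, Slc37a2, Slc5a6, Slc5a12, Slc5a4a, Slc5a4b and Slc37a4 fell in Eed-null villus, by 1.69-fold to 7.24-fold. Slc2a1, Slc2a6, Slc2a8, Slc2a10 and Slc5a3 rose, by 1.76-fold to 3.35-fold. Of 33 carriers tested, 5 were called higher and 7 lower, which is 15.2% and 21.2%, beside 7.90% and 3.46% of all 12525 genes tested. Slc2a6 and Slc5a3 were tested only through their Eed-null level, since their WT villus levels lie below 0.351 RPKM, the lowest level at which a gene was tested. Without them, 3 of 31 carriers were called higher and 7 lower, beside 5.33% and 3.57% of all genes at or above that level in both groups. The median difference of log2(RPKM + 1) was -0.002 over the tested carriers and -0.059 over all tested genes, and 16 carriers had higher and 17 lower values in Eed-null villus.

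Over genes with a level of at least 1 RPKM in each group, Eed-null over WT villus had a median log2 ratio of -0.10, and each of the 12 called carriers kept its direction relative to that median. The enterocyte markers tested summed to 24844 RPKM in Eed-null villus and 33759 RPKM in WT villus, with 0 of 7 called at the authors' q. The stem cell markers summed to 58.2 and 111 RPKM, mostly from Olfm4, which was called lower at 40.6 and 94.5 RPKM. Ascl2 had 0.396 and 0.834 RPKM, whereas Lgr5, Smoc2 and Axin2 had slightly higher values in Eed-null villus, and none of these was called. The median difference of log2(RPKM + 1) over the stem cell markers was 0.06. The goblet cell markers summed to 7894 RPKM in Eed-null villus and 5033 RPKM in WT villus, with Muc2 called higher, and leukocyte markers to 11.1 and 15.8 RPKM, with none called. The enteroendocrine markers summed to 211 RPKM in Eed-null villus and 173 RPKM in WT villus, with Gcg called lower at 2.58 and 9.53 RPKM (q = 7.06e-06, authors' deposited table). The part of these cell types in the carrier results was not tested. Mesenchyme, endothelium, red blood cell and muscle markers summed to less than 1 RPKM in each group, with none tested in either table.

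**Figure D3:**
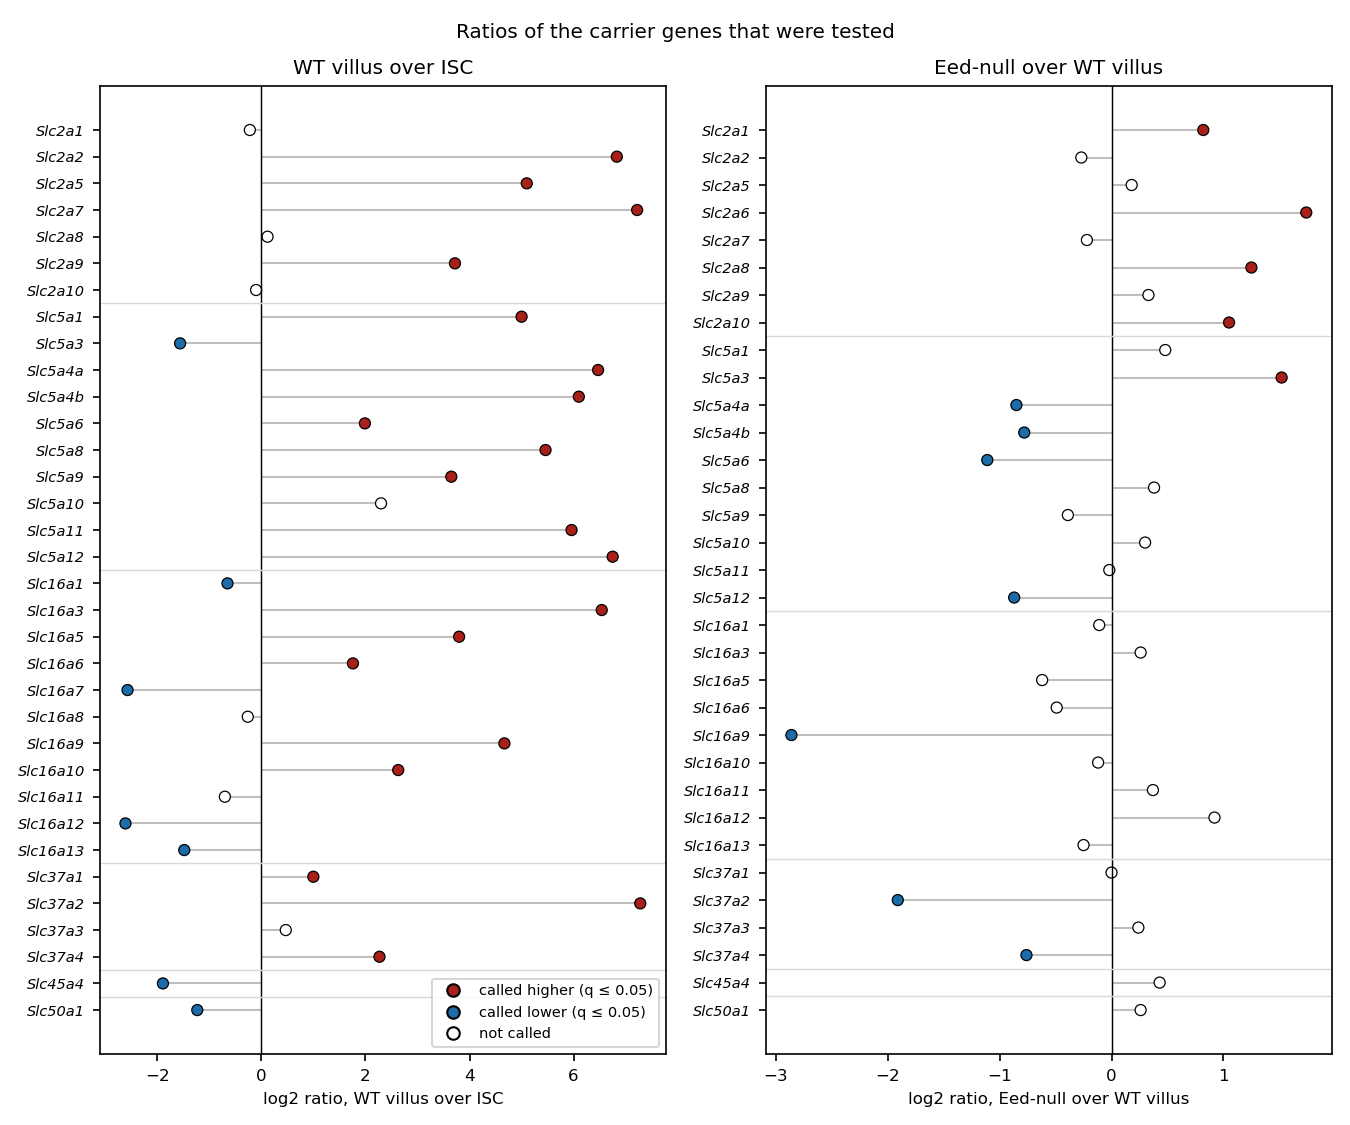
log2 ratio of tested carriers, WT villus over ISC (left, 34 of 35 genes) and Eed-null over WT villus (right, 33 genes), filled where the authors' q was at or below 0.05. The left panel reaches beyond 7 for Slc2a7 and Slc37a2, and the right panel runs from -2.86 for Slc16a9 to 1.74 for Slc2a6, with Slc5a1 and Slc2a2 unfilled.

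The promoters of the called carriers are shown because Polycomb repressive complex 2 is known to bind mainly at CpG-rich promoters. RefSeq windows from GRCm38.p6, with 250 bases before and 50 from the start of a gene, were matched by symbol for 35 of the 48 carriers, with 41 windows in all. The following 6 are written 5′ to 3′ on the gene's strand, with each CpG in capitals. They are 2 carriers that rose, the 2 with the largest falls, and the neighbouring pair Slc5a4a and Slc5a4b, which fell alike.
Slc2a8: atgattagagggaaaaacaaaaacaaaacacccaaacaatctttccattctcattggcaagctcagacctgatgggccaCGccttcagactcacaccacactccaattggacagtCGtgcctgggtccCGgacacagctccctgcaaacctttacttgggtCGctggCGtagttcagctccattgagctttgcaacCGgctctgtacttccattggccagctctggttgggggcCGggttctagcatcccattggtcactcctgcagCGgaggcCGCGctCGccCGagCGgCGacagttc
Slc2a1: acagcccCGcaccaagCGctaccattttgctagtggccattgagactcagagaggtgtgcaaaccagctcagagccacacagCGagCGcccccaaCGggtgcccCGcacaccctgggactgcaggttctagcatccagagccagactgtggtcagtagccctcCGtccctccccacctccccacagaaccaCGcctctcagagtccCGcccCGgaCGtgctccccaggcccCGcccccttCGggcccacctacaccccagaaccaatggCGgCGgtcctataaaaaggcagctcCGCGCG
Slc16a9: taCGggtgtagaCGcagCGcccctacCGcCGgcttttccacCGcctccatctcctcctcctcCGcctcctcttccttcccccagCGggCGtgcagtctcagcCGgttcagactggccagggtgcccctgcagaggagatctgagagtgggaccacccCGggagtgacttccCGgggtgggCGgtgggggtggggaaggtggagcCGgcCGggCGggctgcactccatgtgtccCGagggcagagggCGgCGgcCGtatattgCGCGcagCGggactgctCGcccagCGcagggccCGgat
Slc37a2: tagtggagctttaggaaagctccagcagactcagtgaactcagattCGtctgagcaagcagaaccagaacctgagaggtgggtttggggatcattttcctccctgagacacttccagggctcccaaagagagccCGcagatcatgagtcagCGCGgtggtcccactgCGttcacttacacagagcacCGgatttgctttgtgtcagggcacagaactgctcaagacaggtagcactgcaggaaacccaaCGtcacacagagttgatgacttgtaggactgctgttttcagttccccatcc
Slc5a4a: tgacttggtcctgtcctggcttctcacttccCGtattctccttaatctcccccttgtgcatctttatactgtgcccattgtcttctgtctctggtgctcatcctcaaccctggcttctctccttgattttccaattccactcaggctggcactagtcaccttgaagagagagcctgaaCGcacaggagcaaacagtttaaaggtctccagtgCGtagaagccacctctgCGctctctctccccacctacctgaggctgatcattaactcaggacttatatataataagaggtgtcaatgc
Slc5a4b: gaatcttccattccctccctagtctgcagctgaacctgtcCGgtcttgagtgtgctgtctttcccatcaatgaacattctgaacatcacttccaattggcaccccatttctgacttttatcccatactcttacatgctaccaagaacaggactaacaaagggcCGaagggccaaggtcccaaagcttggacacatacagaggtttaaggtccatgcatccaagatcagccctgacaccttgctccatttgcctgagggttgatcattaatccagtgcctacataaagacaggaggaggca

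The CpG content of carriers that rose and fell overlapped. The Slc2a8 window, at chr2:32982034-32982333 on the minus strand, holds 14 CpG, and that of Slc2a1, at chr4:119108495-119108794 on the plus strand, holds 18. The Slc16a9 window, at chr10:70245026-70245325 on the plus strand, holds 26 CpG, while that of Slc37a2, at chr9:37255689-37255988 on the minus strand, holds 7. The Slc5a4a window at chr10:76147201-76147500 (plus strand) and the Slc5a4b window at chr10:76110969-76111268 (minus strand) hold 4 and 2 CpG. Over all 32851 windows the median was 7 CpG. The 5 carriers that rose had windows of 12 to 38 CpG, with a median of 18, and 6 of those that fell had 9 windows of 2 to 26 CpG, with a median of 11. Carriers that were tested and not called spanned 2 to 42 CpG with a median of 16.5. Slc5a12, which also fell, had no window in the table. Of short motifs searched on both strands, GTTAAT, a short form of the site of the hepatocyte factor HNF1, was in 3 member windows (7.32%, beside 7.10% of all windows), those of Slc5a4a, Slc5a10 and Slc16a10. TATAAA was in 6 (14.6%, beside 13.6%), those of Slc2a1, Slc5a4a, Slc37a4, Slc5a7, Slc16a4 and Slc45a3, and the E-box CACGTG in 4 (9.76%, beside 7.15%), those of Slc5a1, Slc16a1, Slc16a12 and Slc37a3.

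**Figure D4:**
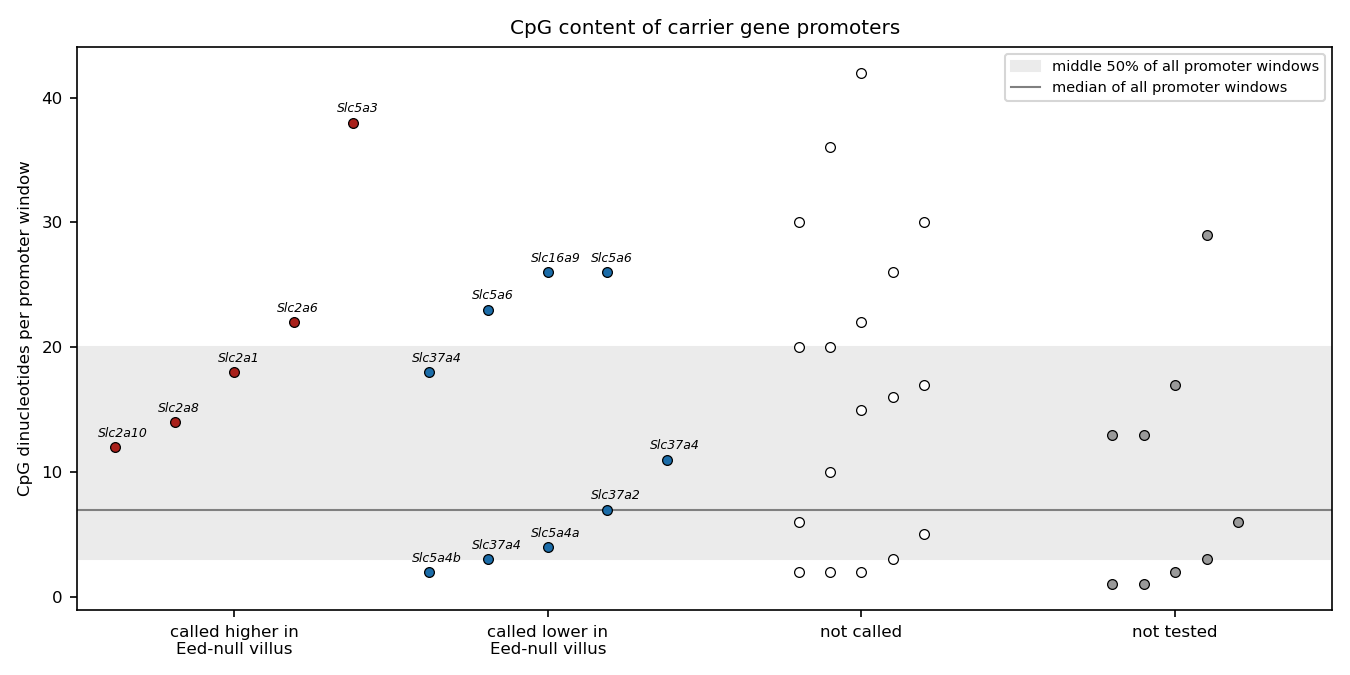
Number of CpG dinucleotides in each promoter window of the carriers, grouped by the call in Eed-null against WT villus, with the median (line) and middle 50% (band) of all 32851 windows. Carriers that rose lie between 12 and 38 and those that fell between 2 and 26, with overlap; a gene with several starts has a point for each.

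Among the Slc2 family, the carriers of intestinal hexose exit and fructose uptake marked the villus. Slc2a2, which releases glucose, galactose and fructose at the basolateral face, had 216 RPKM in WT villus and 1.89 RPKM in ISC, which is 114-fold. Slc2a5, the apical fructose carrier, had 97.2 RPKM in WT villus and 2.83 RPKM in ISC. Its neighbour Slc2a7, an intestinal carrier whose substrates are less settled, had 67.0 RPKM in WT villus and 0.448 RPKM in ISC, which is 149-fold. Both lie on chromosome 4 of mm9, Slc2a5 from 149493452 to 149518277 and Slc2a7 from 149523080 to 149542591. Slc2a9, known as a urate carrier, had 18.7 and 1.42 RPKM, and the authors' deposited table lists q as 0 for all of these genes. The widely expressed members did not pass: Slc2a1, which supplies basal glucose to most cells, had 6.53 RPKM in WT villus and 7.61 RPKM in ISC (q = 0.495, authors' deposited table). Slc2a8, an intracellular hexose carrier, had 2.87 RPKM in WT villus and 2.64 RPKM in ISC (q = 0.807, authors' deposited table), and Slc2a10, linked in human to arterial tortuosity, did not pass either (q = 0.842, authors' deposited table). By level in WT villus the order of the tested members was Slc2a2, Slc2a5, Slc2a7, Slc2a9, Slc2a1, Slc2a8 and Slc2a10. In ISC the order began with Slc2a1, which held 41.0% of the ISC sum. Slc2a6 had 0.271 RPKM in WT villus and 0.0616 RPKM in ISC and was not tested in this comparison.

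In Eed-null villus the Slc2 members that passed were those with low levels, and all rose. Of 8 Slc2 genes tested, 4 were called higher and 0 lower, beside 7.90% and 3.46% of all genes. At or above 0.351 RPKM in both groups, 3 of 7 were called higher, beside 5.33% of all such genes. Slc2a1 had 9.92 RPKM in Eed-null villus and 5.62 RPKM in WT villus, a 1.76-fold rise (q = 0.0238, authors' deposited table). Slc2a8 had 5.89 and 2.47 RPKM, a 2.39-fold rise (q = 0.00200, authors' deposited table). Slc2a10 had 2.49 and 1.20 RPKM, a 2.07-fold rise (q = 0.0254, authors' deposited table). Slc2a6, a lysosomal member, had 0.781 RPKM in Eed-null villus and 0.233 RPKM in WT villus (q = 0.0163, authors' deposited table), both low levels. At q of 0.01 only Slc2a8 of these 4 would be called. Slc2a2 had 154 RPKM in Eed-null villus and 186 RPKM in WT villus (q = 0.616, authors' deposited table), and Slc2a5 had 94.5 and 83.6 RPKM (q = 0.777, authors' deposited table). Slc2a7 and Slc2a9 were likewise not called, at 49.5 and 20.2 RPKM in Eed-null villus and 57.6 and 16.1 RPKM in WT villus. Slc2a3, the neuronal glucose carrier, Slc2a4, the insulin-responsive one of muscle and fat, Slc2a12 and Slc2a13, a proton-coupled myo-inositol carrier, stayed below 0.25 RPKM in every group and were not tested.

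Slc5a1, the sodium-coupled glucose and galactose carrier, was the most abundant of all 48 genes in every group. It had 1297 RPKM in WT villus and 40.6 RPKM in ISC, which is 32.0-fold with q listed as 0 in the authors' deposited table. By level it ranked 50 of 22517 named genes in WT villus and 1416 in ISC. In Eed-null villus it had 1561 RPKM, against 1117 RPKM in WT villus, and this 1.40-fold difference did not pass (q = 0.554, authors' deposited table). It made up 86.5% of the summed Slc5 level in Eed-null villus and 76.0% in WT villus, and the rest of the family summed to 243 and 352 RPKM. Slc5a1 lies at chr5:33446867-33505348 of mm9.

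Slc5a4a, Slc5a4b and Slc5a9 were also higher in WT villus than in ISC, and the Slc5a4 pair fell after Eed loss. Slc5a4a and Slc5a4b encode SGLT3 proteins, whose human counterpart is described as a glucose sensor more than a carrier. They had 87.9 and 101 RPKM in WT villus and 0.992 and 1.47 RPKM in ISC, with q listed as 0 in the authors' deposited table. Both fell in Eed-null villus, Slc5a4a to 41.9 RPKM, against 75.6 RPKM in WT villus (q = 0.00315, authors' deposited table), and Slc5a4b to 50.5 RPKM, against 87.0 RPKM (q = 0.00793, authors' deposited table). The pair are neighbouring close copies on chromosome 10 of mm9, from 75521365 to 75573763 and from 75610195 to 75652010, and reads that match both could have been divided between them, so each value is uncertain. Slc5a9, a mannose and glucose carrier, had 21.0 RPKM in WT villus and 1.68 RPKM in ISC, and after Eed loss 13.8 RPKM against 18.1 RPKM in WT villus (q = 0.340, authors' deposited table). Slc5a10, known mainly from kidney, had 2.05 RPKM in WT villus and 0.417 RPKM in ISC (q = 0.0587, authors' deposited table), just outside the threshold, and shares its locus entry with Fam83g, which was called higher in WT villus. After Eed loss Slc5a10 had 2.17 RPKM, against 1.76 RPKM in WT villus (q = 0.926, authors' deposited table).

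Of the myo-inositol carriers, Slc5a11 was higher and Slc5a3 lower in WT villus than in ISC. Slc5a11 had 79.2 RPKM in WT villus and 1.27 RPKM in ISC, with q listed as 0 in the authors' deposited table. Slc5a3, the osmotically regulated one, had 0.404 RPKM in WT villus and 1.19 RPKM in ISC (q = 0.000668, authors' deposited table). In Eed-null villus Slc5a3 rose to 0.998 RPKM, against 0.348 RPKM in WT villus (q = 0.00641, authors' deposited table), while Slc5a11 had 67.2 and 68.2 RPKM (q = 0.989). Slc5a3 shares its locus entry with Mrps6, a mitochondrial ribosomal protein gene, and reads of the pair cannot be assigned with certainty. Mrps6 was also called lower in WT villus than in ISC, at 12.0 and 26.0 RPKM (q = 0.00378, authors' deposited table). It had 18.9 RPKM in Eed-null villus and 10.3 RPKM in WT villus (q = 0.132, authors' deposited table).

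Sodium-coupled carriers of acids and vitamins were also higher in WT villus than in ISC. Slc5a12, a low-affinity lactate carrier, had 76.3 RPKM in WT villus and 0.709 RPKM in ISC, and Slc5a8, a carrier of short-chain fatty acids and lactate, had 19.8 and 0.449 RPKM, with q listed as 0 for both in the authors' deposited table. Of this pair, Slc5a12 was called after Eed loss. Slc5a12 fell to 35.8 RPKM in Eed-null villus, against 65.6 RPKM in WT villus (q = 0.00408, authors' deposited table), while Slc5a8 had 22.2 and 17.0 RPKM (q = 0.351, authors' deposited table); the difference between these changes was not tested. Slc5a6, which carries biotin, pantothenate and lipoate, had 21.3 RPKM in WT villus and 5.37 RPKM in ISC. It fell to 8.51 RPKM in Eed-null villus, against 18.3 RPKM in WT villus, which is 2.15-fold (q = 3.25e-05, authors' deposited table). Slc5a6 shares its locus entry on chromosome 5 with Atraid, which had 19.7 RPKM in Eed-null villus and 27.9 RPKM in WT villus (q = 0.562, authors' deposited table), and reads of the pair cannot be assigned with certainty. Slc5a2, the kidney glucose carrier, Slc5a5, the thyroid iodide carrier, and Slc5a7, the neuronal choline carrier, stayed at or below 0.111 RPKM in every group and were not tested.

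Of 12 Slc16 genes tested, 5 were higher in WT villus and 5 higher in ISC, beside 30.5% and 32.3% of all genes. At or above 0.246 RPKM in both groups, 5 and 3 of 10 were called, beside 30.8% and 31.7% of all such genes. Slc16a3, the lactate exporter of glycolytic cells, had 36.7 RPKM in WT villus and 0.395 RPKM in ISC, which is 92.9-fold with q listed as 0 in the authors' deposited table. Slc16a1, the broadly expressed carrier of lactate, pyruvate and ketone bodies, went the other way, with 19.5 RPKM in WT villus and 30.6 RPKM in ISC (q = 0.00923, authors' deposited table). It held 44.6% of the summed Slc16 level in ISC, where it was the most abundant member, whereas Slc16a5, a carrier studied for drugs such as bumetanide, held 35.3% in WT villus. Slc16a5 had 81.4 RPKM in WT villus and 5.86 RPKM in ISC, and Slc16a10, an aromatic amino acid carrier, had 68.4 and 11.0 RPKM, both with q listed as 0 in the authors' deposited table. Slc16a9, linked in human to carnitine export, had 9.39 RPKM in WT villus and 0.368 RPKM in ISC, again with q listed as 0 in the authors' deposited table. Slc16a6, an exporter of ketone bodies in zebrafish liver, had 8.80 and 2.59 RPKM (q = 6.94e-06, authors' deposited table) and shares its locus entry with Arsg, which was also called higher in WT villus, so reads of the pair cannot be assigned with certainty.

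Further Slc16 genes were higher in ISC and low in level. Slc16a13 had 3.04 RPKM in WT villus and 8.46 RPKM in ISC, and Slc16a12, a creatine carrier, 0.664 and 4.05 RPKM (q = 2.62e-06 and 3.05e-12, authors' deposited table). Slc16a7, a high-affinity lactate and pyruvate carrier, had 0.172 RPKM in WT villus and 1.03 RPKM in ISC (q = 8.59e-05, authors' deposited table). Slc16a7 was tested only through its ISC level. Slc16a11, a liver-expressed member, had 1.87 RPKM in WT villus and 3.04 RPKM in ISC, and Slc16a8, the carrier of the retinal pigment epithelium, had 0.331 and 0.396 RPKM (q = 0.134 and 0.752, authors' deposited table). Slc16a4 stayed below 0.25 RPKM, and Slc16a14 is listed at 0 in every group.

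Of 9 Slc16 genes tested after Eed loss, 1 fell and 0 rose at the authors' q, beside 3.46% and 7.90% of all genes. Slc16a9 fell to 1.12 RPKM in Eed-null villus, against 8.08 RPKM in WT villus, which is 7.24-fold with q listed as 0 in the authors' deposited table. This was the greatest change of any tested carrier in that comparison, at chr10:69708023-69748699 of mm9. The lactate carriers Slc16a1 and Slc16a3 had 15.6 and 37.9 RPKM in Eed-null villus and 16.8 and 31.6 RPKM in WT villus (q = 0.881 and 0.637, authors' deposited table). Slc16a5 lay just outside the threshold, with 45.7 RPKM in Eed-null villus and 70.1 RPKM in WT villus (q = 0.0595, authors' deposited table). Slc16a12 had 1.08 and 0.571 RPKM (q = 0.134, authors' deposited table), and Slc16a11 had 2.09 and 1.61 RPKM (q = 0.695, authors' deposited table). Slc16a10 and Slc16a13 had 54.3 and 2.20 RPKM in Eed-null villus and 58.9 and 2.61 RPKM in WT villus (q = 0.890 and 0.783, authors' deposited table). Slc16a6 had 5.39 RPKM in Eed-null villus and 7.58 RPKM in WT villus (q = 0.486, authors' deposited table), whereas Arsg, of the same locus entry, fell to 4.76 RPKM, against 13.0 RPKM (q = 0.0364, authors' deposited table). Slc16a4, Slc16a7 and Slc16a8 were too low to be tested, at 0.148 to 0.285 RPKM.

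Of the 4 Slc37 genes, all tested, 3 were higher in WT villus than in ISC, beside 30.5% of all genes, and 2 fell after Eed loss, beside 3.46%. Slc37a4, the glucose 6-phosphate carrier of the endoplasmic reticulum, had 62.6 RPKM in WT villus and 12.9 RPKM in ISC, with q listed as 0 in the authors' deposited table. It fell to 31.9 RPKM in Eed-null villus, against 53.9 RPKM in WT villus (q = 0.0115, authors' deposited table). Slc37a2, a sugar phosphate exchanger best known from macrophages, had 20.0 RPKM in WT villus and 0.129 RPKM in ISC, which is 156-fold with q listed as 0 in the authors' deposited table, and was tested through its villus level. It fell to 4.60 RPKM in Eed-null villus, against 17.3 RPKM in WT villus, which is 3.75-fold (q = 1.64e-10, authors' deposited table). Of the leukocyte markers, whose sums of 11.1 RPKM in Eed-null villus and 15.8 RPKM in WT villus held no call in 4 tested, Ptprc had 2.90 and 2.84 RPKM, Cd3e 1.78 and 3.12 RPKM, Cd3g 4.12 and 6.37 RPKM, and Cd8a 2.31 and 3.48 RPKM. Against ISC, the leukocyte markers summed to 18.4 RPKM in WT villus and 3.34 RPKM in ISC, with 4 of 4 tested called higher in WT villus. Their part in the Slc37a2 results of both comparisons was not tested. Slc37a1, a related exchanger, had 31.4 RPKM in WT villus and 15.7 RPKM in ISC (q = 0.000122, authors' deposited table), and the same level to 3 digits in Eed-null and WT villus (q = 0.998, authors' deposited table). Slc37a3, which in human forms a lysosomal complex with the Atraid protein, had 12.5 RPKM in WT villus and 9.07 RPKM in ISC (q = 0.0704, authors' deposited table), and 12.7 RPKM in Eed-null villus, against 10.8 RPKM in WT villus (q = 0.654, authors' deposited table).

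The remaining families were higher in ISC or hardly expressed. Slc50a1, the mammalian relative of the plant SWEET sugar effluxers, had 11.0 RPKM in WT villus and 25.8 RPKM in ISC (q = 4.99e-05, authors' deposited table). Slc45a4, a proton-coupled sugar carrier, had 1.17 and 4.34 RPKM (q = 1.73e-05, authors' deposited table). After Eed loss neither was called: Slc50a1 had 11.3 RPKM in Eed-null villus and 9.47 RPKM in WT villus, and Slc45a4 had 1.36 and 1.01 RPKM (q = 0.737 and 0.705, authors' deposited table). Slc45a1, a brain sugar carrier, Slc45a2, the melanosome protein of skin and eye pigment, and Slc45a3, known from prostate, stayed at or below 0.271 RPKM and were not tested.

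Other genes of sugar and monocarboxylate handling, from disaccharidases and enzymes to carrier partners, regulators and sweet sensors, were also mostly higher in WT villus than in ISC. Of 79 such genes in 8 lists, 75 were tested, and 50 were called higher and 8 lower in WT villus, beside 30.5% and 32.3% of all genes. The lists' median differences of log2(RPKM + 1) ran from 0.23 for the regulators and sweet-sensing genes to 6.05 for the disaccharidases, beside -0.064 over all tested genes. Of 6 fructose enzymes 5 were called higher, among them Glyctk (12.0-fold), the fructokinase Khk (11.1-fold) and Sord (10.2-fold). Of 8 galactose enzymes 5 were called higher, among them the mutarotase Galm (5.86-fold), the phosphoglucomutases Pgm1 (4.41-fold) and Pgm2 (3.77-fold) and Ugp2 (2.25-fold). Of 19 glycolysis genes, 15 passed as higher and 1 as lower. Hkdc1, a hexokinase family member, had 140 RPKM in WT villus and 8.72 RPKM in ISC, and Pklr, Aldoc and Pfkp were 10.9-fold, 10.3-fold and 8.98-fold higher. Hk2, an inducible hexokinase, was the exception, with 3.34 RPKM in WT villus and 16.4 RPKM in ISC.

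Genes of glucose release and of lactate use included calls in both directions. The list counts that follow stand beside 30.5% of all tested genes called higher in WT villus and 32.3% called higher in ISC. G6pc, the glucose 6-phosphatase served by Slc37a4, had 21.6 RPKM in WT villus and 0.222 RPKM in ISC, and Pck1, the cytosolic phosphoenolpyruvate carboxykinase, had 300 and 5.02 RPKM, whereas its mitochondrial counterpart Pck2 had 2.94 and 23.5 RPKM. Pcx, pyruvate carboxylase, was 6.80-fold higher in WT villus, and the list had 6 genes called higher and 2 lower of 8. Of 14 lactate, pyruvate and ketone genes, 7 were called higher and 3 lower in WT villus. The lactate dehydrogenase Ldha had 1386 RPKM in WT villus and 300 RPKM in ISC, and Ldhb had 0.0589 and 0.947 RPKM. Pdk2, a kinase that restrains pyruvate oxidation, was 3.24-fold higher in WT villus. Among carrier partners 4 of 6 were called higher, including the scaffold genes Pdzk1 (62.8-fold) and Slc9a3r1 (20.3-fold), Nptn (2.19-fold) and Bsg (2.13-fold), the chaperone of Slc16a1 and Slc16a3. Of 10 glucose-responsive and sweet-sensing genes, 4 were called higher and 2 lower: the taste G protein gene Gnat3, Trpm5 and Mlx were 74.8-fold, 3.87-fold and 3.73-fold higher in WT villus, and Mlxip was 3.11-fold higher in ISC. Trpm5 was also on the list of tuft cell markers, of which 3 of 3 were called higher in WT villus. The others, Dclk1 and Pou2f3, had 4.04 and 2.39 RPKM in WT villus and 0.591 and 1.18 RPKM in ISC. The part of tuft cells in the sweet-sensing result was not tested. Of the called genes, G6pc, Ldhb and Gnat3 were tested through their higher group alone. Among all genes at or above 0.246 RPKM in both groups, 30.8% were called higher in WT villus and 31.7% higher in ISC. The disaccharidase genes Sis, Mgam, Lct and Treh were all called higher in WT villus.

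**Figure D5:**
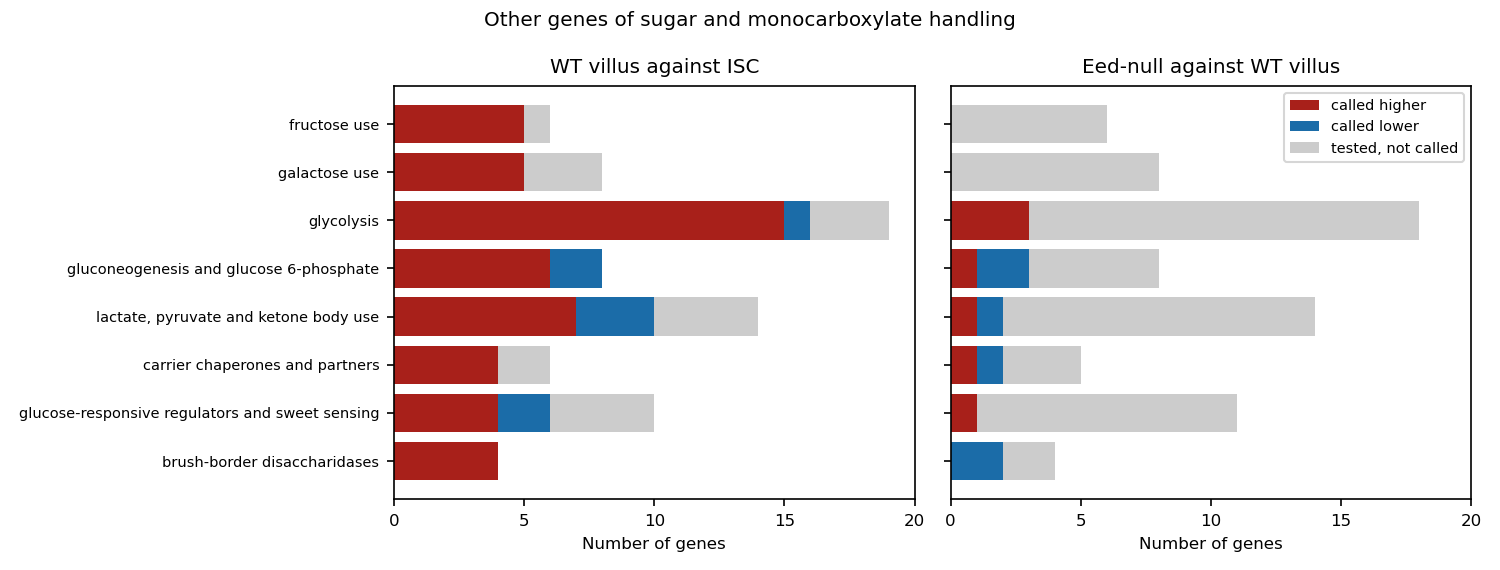
Number of genes called higher (red), called lower (blue) or tested and not called (grey) in lists of other genes of sugar and monocarboxylate handling, for WT villus against ISC (left) and Eed-null against WT villus (right). Fructose and galactose lists show no call after Eed loss, whereas glycolysis shows 3 genes called higher.

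After Eed loss, 7 of these genes were called higher and 6 lower of 74 tested, beside 7.90% and 3.46% of all genes. The lists' median differences of log2(RPKM + 1) ran from -0.79 for the disaccharidases to 0.20 for the regulators and sweet-sensing genes, beside -0.059 over all tested genes. No fructose or galactose gene was called, of 6 and 8 tested, at the authors' q. Of 18 glycolysis genes tested, 3 rose and 0 fell at the authors' q. These were the hexokinase gene Hk1, with 7.55 RPKM in Eed-null villus and 1.83 RPKM in WT villus, Hk2, with 8.01 and 2.87 RPKM, and the phosphofructokinase Pfkm, with 6.68 and 2.35 RPKM (q = 1.03e-06, 3.04e-07 and 0.00957, authors' deposited table). The more abundant Hkdc1, Pfkl and Pfkp were not called, at 113, 12.9 and 56.7 RPKM in Eed-null villus and 121, 15.5 and 75.0 RPKM in WT villus. G6pc fell to 6.58 RPKM in Eed-null villus, against 18.6 RPKM in WT villus, and Pck1 to 120 RPKM, against 258 RPKM (q = 4.49e-07 and 0.000248, authors' deposited table), while Pcx rose to 55.3 RPKM, against 25.1 RPKM (q = 2.71e-05, authors' deposited table). G6pc and Slc37a4, a phosphatase and the carrier that serves it at the endoplasmic reticulum, thus both fell in Eed-null villus, Slc37a4 not at a q of 0.01. G6pc3, of the same list as G6pc, had 4.47 RPKM in Eed-null villus and 8.03 RPKM in WT villus and was not called (q = 0.0564, authors' deposited table). Ldhb, the lactate dehydrogenase subunit of heart, rose to 2.91 RPKM in Eed-null villus, against 0.0507 RPKM in WT villus (q = 3.04e-05, authors' deposited table), beside Ldha at 1252 and 1193 RPKM. Mpc1, a subunit of the mitochondrial pyruvate carrier, fell to 78.9 RPKM, against 129 RPKM (q = 0.0198, authors' deposited table). Nptn, an Slc16 chaperone, rose 2.51-fold and Pdzk1 fell 1.68-fold. Tas1r2, a sweet taste receptor subunit, had 0.953 RPKM in Eed-null villus and 0.113 RPKM in WT villus (q = 5.48e-06, authors' deposited table). Ldhb and Tas1r2, both among the 7 called higher, were tested through their Eed-null level alone. Among all genes at or above 0.351 RPKM in both groups, 5.33% were called higher and 3.57% lower. Of the disaccharidase genes, Lct and Treh fell 1.95-fold and 2.20-fold, and Sis and Mgam were not called.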

How the data were processed

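Per the labels' protocols, the RNA libraries came from the TruSeq V2 kit, an unstranded protocol, with single reads of 75 bases. Bowtie, TopHat2 2.0.6, Cuffdiff, Cufflinks 2.0.1 and the build mm9 appear in the submitters' processing notes, with no role stated. Which annotation was used is not given in the sources used. The RPKM values are those the authors deposited, 1 per group and gene, per the file header of the villus and ISC table; the unit of the other table, whose header states none, was taken from the constant factor of 1.16193 between the WT villus values of the 2 tables. Per the file headers, the authors deposited a q-value beside a p-value for each gene. No model was fitted across libraries, no error per group can be given, and depth is unknown.

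Folds, sums and counts were computed with Python 3.11.15 and pandas 2.3.3, with a pseudocount of 1 RPKM for medians only. A Benjamini-Hochberg adjustment recomputed over all tested genes differed from the deposited q by at most 7.38e-05 and 8.02e-05; the adjustment and the call rule were tested on made-up values. The members, the gene lists and the tests were chosen with earlier results of these data known. All members are accounted for, and up to 4 called genes per list with the greatest log2 ratio are named. Further genes, Hk2, Pfkl, Ldha, G6pc3, Atraid, Mrps6, Fam83g, Arsg, Ddx3y, Muc2, Gcg and the stem cell, Paneth, tuft and leukocyte markers, were named after their values were seen. Some genes that the rule would name, 1 of them a member, are counted but not reported here. Older symbols were used where the tables have them. Protein sequences, planned for the text, were not used here. Promoter windows come from RefSeq on GRCm38.p6, matched by symbol; coordinates of genes are those of the files on mm9, whose start convention is not stated. The 14 chromatin and input libraries were not analysed here.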

Additional observations from a re-analysis of the deposited data

How the results depend on the processing

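Between WT villus and ISC, with a q threshold of 0.01 or 0.1, at least 1 RPKM, at least 1.5-fold, no shared locus entries, a recomputed adjustment or centring, 18 to 22 carriers were called higher and 7 or 8 lower, and 19 and 6 at or above the lowest tested level in both groups, a setting chosen after seeing the data. The carriers called higher in Eed-null villus went from 5 to 2 at a q of 0.01, where Slc2a1, Slc2a6, Slc2a10 and, among those lower, Slc37a4 were no longer called. They were 3 with at least 1 RPKM and also 3 at or above the lowest tested level in both groups, because Slc2a6 and Slc5a3 lie below these levels; the count lower stayed between 6 and 8 under each setting run. At a q of 0.1 Slc16a5 was added. Other genes called lower in Eed-null villus went from 6 to 3 at a q of 0.01. The median difference of the carriers between WT villus and ISC was 2.06 with a pseudocount of 0.1 RPKM, 2.27 with none, 2.19 with at least 1 RPKM, 1.78 centred and 0.150 over all 48 members; between Eed-null and WT villus it was 0.014 over all members, -0.019 with at least 1 RPKM and 0.101 centred. The summed WT villus level was 2140 RPKM in the other table. Slc37a1 and Slc5a11, not called, changed sign when centred. No paired analysis was possible because the tables give 1 value per group, and no replicate could be left out for the same reason. Without depth, how low a level can be trusted is unknown.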
